A study of Rattus norvegicus with 12 samples.

Results

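Rat hepatocytes held in interferon alpha were compared with themselves across time: 3 arrays from cultures treated for 6 h were set against 3 arrays from cultures treated for 3 h. These 6 arrays were chosen by their titles, out of 12 in the study. All cells were primary hepatocytes of the outbred Wistar strain, released from liver with collagenase, purified on a Percoll gradient and used on the day after isolation. The treated cultures received 250 u/ml of rat interferon alpha, and the other 6 arrays came from untreated cultures harvested at the same 3 h and 6 h, 3 arrays each. Each of the 4 groups holds biological replicates numbered 1 to 3, and a 6 h array was paired with the 3 h array of the same number. The labels do not say whether a number marks 1 animal or 1 day of isolation, so the p-values speak for these samples only. Where the number is used as a block, they measure the spread left after the offset of each number is removed. No array from before treatment was analysed here.

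Interferon alpha binds a receptor shared by the type I interferons and activates the kinases Jak1 and Tyk2, which phosphorylate transcription factors such as Stat2. Together with Irf9, Stat2 enters the nucleus in a complex that binds the interferon-stimulated response element, a DNA motif of repeated GAAA blocks, in front of the genes it switches on. Some target genes are transcribed at once from pre-formed factors, while others build up later, and brakes such as Usp18 and Socs1 dampen the signal. Hepatocytes carry the receptor and are the cells in which chronic viral hepatitis, long treated with interferon alpha, takes place. Once plated, hepatocytes also lose part of their liver-specific transcription over time, whether or not interferon is present.

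For a view of the DNA in front of the genes that climbed most, the 100 bases before the start site are shown for the 4 of the 7 interferon genes among the 15 largest rises whose promoter held the letters GAAANNGAAA on either strand. The sequences are from RefSeq on assembly GRCr8, written 5′ to 3′ in the gene's direction, and end at the base before the start site. Capitals mark the match, which reads TTTCNNTTTC where it lies on the opposite strand.
Ddx60, chr16:33208840-33208939, minus strand: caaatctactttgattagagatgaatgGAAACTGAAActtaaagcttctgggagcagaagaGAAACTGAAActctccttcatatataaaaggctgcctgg
Gbp2, chr2:234005627-234005726, plus strand: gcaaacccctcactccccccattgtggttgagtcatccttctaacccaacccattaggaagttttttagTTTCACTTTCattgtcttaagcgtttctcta
Gbp4, chr2:233978386-233978485, plus strand: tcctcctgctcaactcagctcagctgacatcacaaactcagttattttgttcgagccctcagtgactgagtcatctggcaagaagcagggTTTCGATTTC
Ifi44l, chr2:243328623-243328722, plus strand: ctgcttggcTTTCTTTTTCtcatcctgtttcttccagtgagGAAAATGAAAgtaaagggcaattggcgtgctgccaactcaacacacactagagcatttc
The Ddx60 promoter held 2 copies of the same 10 letters, beginning 73 and 39 bases before the start. Ifi44l held 1 match on each strand, at 91 and 59 bases, whereas Gbp2 and Gbp4 each held 1 on the opposite strand, at 31 and 10 bases. Over the 250 bases before the start, 1140 of 33469 promoter sequences in the table held the letters (3.41%). Among genes measured here the share was 338 of 11733 (2.88%), against 46 of 150 genes of the interferon lists (30.7%). Of interferon-list genes that rose between 3 h and 6 h, 15 of 36 held it (41.7%), against 31 of 108 that did not pass the test (28.7%), a difference that was not tested. Genes that rose outside these lists held it in 18 of 655 cases (2.75%), close to the share over all measured genes. A match describes letters in a window and does not show binding.

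Between 3 h and 6 h of interferon, 1485 of 31042 probe sets rose (4.78%) and 1520 fell (4.9%), by limma on the deposited log2 RMA values with replicate number as a block and a Benjamini-Hochberg adjusted p under 0.05. Most of the movement was small: 73 probe sets rose and 33 fell by 2-fold or more. When each of 14217 named genes was represented by its brightest probe set, 816 genes rose (5.74%) and 906 fell (6.37%). All changes given here are differences of log2 levels, 6 h minus 3 h, with the standard error of the fit, and each group mean rests on 3 arrays. The 15 genes with the largest rise included 7 known interferon genes, led by Mx1, Ddx60, Gbp2 and Gbp4. The 15 with the largest fall were led by Cyp7a1, the rate-limiting enzyme of bile acid synthesis.

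The calls rest on the pairing of arrays by number. Without the block 120 probe sets were called (0.387%), 72 higher (0.232%) and 48 lower (0.155%), and every one of these was also called with it. Untreated culture then gave 28 higher (0.0902%) and 31 lower (0.0999%). Of the 15 largest rises 1 was then called (Nfix), with adjusted p from 0.0209 to 0.745, and of the 15 largest falls 0, with adjusted p from 0.0573 to 0.852. With the block the same genes lay between 0.000178 and 0.0094 for the rises and between 0.00011 and 0.00529 for the falls. All 6 h arrays lay above all 3 h arrays for 11 of the 15 rises, and below them for 6 of the 15 falls, where 7.97% and 7.65% of all genes did so. Single arrays mattered for the total: it dropped to 1536, 1680 or 1467 without replicate 1, 2 or 3 of the 3 h treated group, and to 1578 or 1758 without replicate 2 or 3 of the 6 h treated group. All 30 of these leading genes stayed called when any 1 array was left out. Without replicate number 3 in every group, 8 of the rises and 13 of the falls were still called, without number 2 there were 13 and 14, and without number 1 all were.

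The cells carried the hepatocyte markers their label calls for at both times. The 9 measured hepatocyte markers had mean levels from 11.32 to 14.67, where the lower quartile of the arrays was 3.84 to 3.93, and 0 of 9 passed the test. Of these 7 were lower at 6 h, 5 of them in all 3 pairs, with a median change of -0.04, and levels this near the top of the scale may understate a change. Albumin (Alb) read 14.67, 14.69 and 14.66 at 3 h and 14.65, 14.69 and 14.67 at 6 h in replicates 1 to 3. Markers of endothelial cells, lymphocytes and neutrophils had median levels of 4.07, 3.95 and 3.74, and 0 of 26 passed the test. Among stellate cell markers 1 of 12 rose (Dcn, by 0.33 ± 0.08 from a level near the lower quartile, lost without any 1 of 6 arrays), and among cholangiocyte markers 0 of 6. Kupffer cell markers, which include the bright genes Cd14 and Lyz2, averaged 5.95 to 7.1 over the 3 h treated arrays and 5.96 to 7.21 over the 6 h ones, with replicate 1 highest in both. None of the 11 passed the test, and the part that other cells had in any change below was not tested. In bulk RNA, fewer cells of a type and less RNA per cell cannot be told apart.

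Interferon genes as a group moved upward. Over 10 lists of interferon-related genes, 186 were measured, of which 41 rose (22%) and 6 fell (3.23%), against 5.74% and 6.37% over all genes. Their median change was 0.26, whereas the median over all genes was -0.01. In 113 of the 186 the 6 h array was the higher in all 3 pairs (60.8%), where 20.7% of all genes did so. The pair medians were 0.31, 0.28 and 0.23 for replicates 1, 2 and 3. Pair 1 gave the largest rise in 81 of the 186, where it did so in 5069 of all 14217 genes. At 3 h the median level of these lists was 8.29, 8.63 and 8.29 in treated replicates 1, 2 and 3. In untreated replicates it was 8.12, 7.73 and 7.66, so treated replicate 1 lay closest to its untreated partner at the start of the interval. The count of 41 ranged from 19 to 46 when 1 treated array was left out, being 20 without replicate 1 at 3 h and 19 and 24 without replicates 2 and 3 at 6 h. It was 47, 18 and 9 without replicate numbers 1, 2 and 3, 1 without the block, and 68 in a blocked fit of the 6 treated arrays alone.

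Antiviral effectors, the proteins that act on virus particles and viral RNA, made up 20 of the 41 interferon-list genes that rose. Of 56 measured, 20 rose (35.7%) and 1 fell, with a median change of 0.64, and 46 were higher at 6 h in all 3 pairs. Mx1, a dynamin-like GTPase that traps viral nucleocapsids, read 5.44, 6.69 and 5.63 at 3 h and 7.88, 9.63 and 7.52 at 6 h. Every 6 h array was thus above every 3 h array, while the untreated arrays stayed between 3.62 and 4.57. The rise was 2.42 ± 0.37, or 5.37-fold (adjusted p = 0.00316). Ddx60, a DExD/H-box helicase that aids RNA sensors, read 6.0, 7.18 and 5.21 at 3 h and 8.35, 9.03 and 7.93 at 6 h, a rise of 2.31 ± 0.42 (4.95-fold, adjusted p = 0.00713). Its groups did not overlap, but the untreated arrays differed among replicates, from 5.91 in replicate 1 to 3.1 in replicate 3 at 3 h, the last below the lower quartile. The call was lost without replicate number 3 (adjusted p = 0.091).

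Other effectors climbed from higher starting levels. Rnf213, a large ubiquitin ligase that coats intracellular microbes, went from 8.29, 9.77 and 9.37 to 10.19, 10.91 and 10.97 (1.55 ± 0.29), and its other probe set gave 1.39. Ifi44l went from 8.63, 9.42 and 9.09 to 9.92, 10.67 and 10.61 (1.35 ± 0.25). Replicate 1 was the lowest array of both genes at both times, and neither gene's groups overlapped. Samhd1, which depletes the nucleotides viruses need, went from 6.59, 7.98 and 6.63 to 8.12, 9.13 and 7.56 (1.21 ± 0.21), with the highest 3 h array above the lowest 6 h one. The calls of these 3 genes were lost without replicate number 3, with adjusted p from 0.0645 to 0.0914, and that of Ifi44l also without number 2 (0.0792).

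Further effectors rose with smaller steps. Adar, the enzyme that edits adenosine in double-stranded RNA, read 8.67, 8.83 and 8.85 at 3 h and 9.56, 9.8 and 10.14 at 6 h (1.05 ± 0.12, 2.07-fold, adjusted p = 0.000842). The effectors of this paragraph were all picked after their values were seen. Nmi, an interferon-inducible partner of Stat proteins, rose by 0.51 ± 0.08 (adjusted p = 0.0033). The others of the 20 not yet named rose by 0.6 to 1.02 and included the RNA-activated kinase Eif2ak2 (0.92 ± 0.20), the exonuclease Isg20 (0.99 ± 0.21), the ADP-ribosyltransferases Parp9 (1.02 ± 0.22) and Parp12 (0.94 ± 0.18), and the capsid-binding ligase Trim5 (0.87 ± 0.15). Plscr1, a membrane lipid scramblase, was the 1 effector that fell (-0.43 ± 0.09, adjusted p = 0.0123), and it fell in untreated culture as well (-0.65), though 0 to 1 effectors fell without 1 treated array. The count of 20 risers ranged from 9 to 21 without 1 treated array, being 10 without replicate 1 at 3 h and 9 and 10 without replicates 2 and 3 at 6 h. It was 25, 6 and 3 without replicate numbers 1, 2 and 3, 1 without the block, and 33 in the blocked fit of the treated arrays alone.

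**Figure D1:**
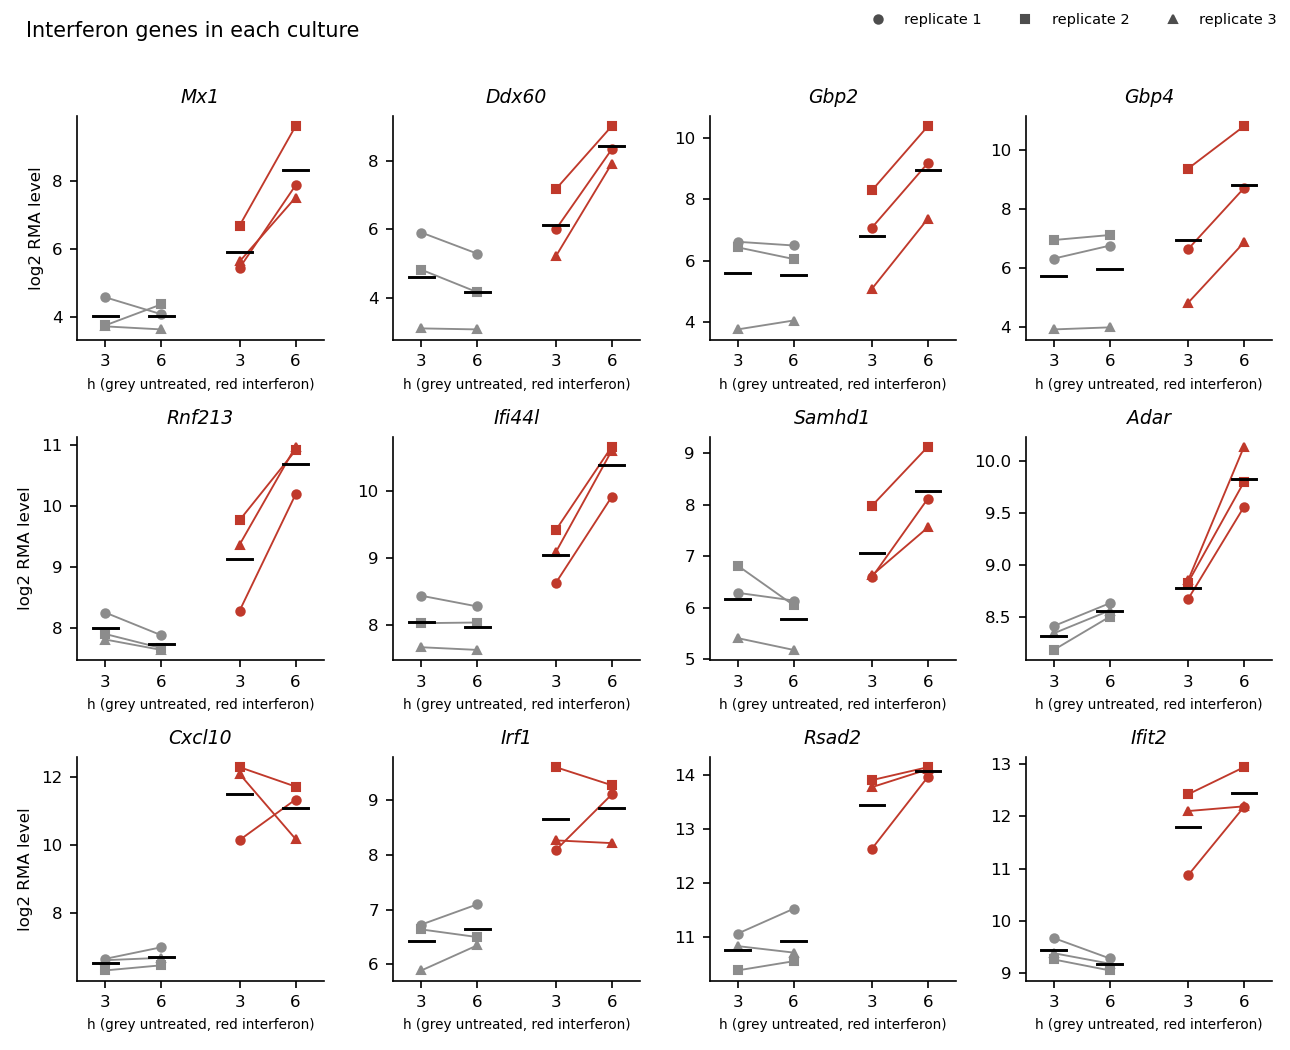
Log2 RMA level (vertical axes) of 12 interferon genes at 3 h and 6 h in untreated (grey) and interferon-treated (red) cultures; symbols are the 3 replicates, lines join arrays of the same number and black bars are group means of 3 arrays. The first 8 genes rose in all 3 treated pairs, whereas Cxcl10 and Irf1 rose in 1 pair and fell in 2, and Rsad2 and Ifit2 rose most in replicate 1.

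The guanylate-binding and immunity-related GTPases, which attack the membranes around intracellular pathogens, were higher at 6 h in all 7 genes measured and in all 3 pairs of each. Of these, 2 passed the test. Gbp2 read 7.07, 8.28 and 5.08 at 3 h and 9.17, 10.37 and 7.36 at 6 h. The replicates lay far apart at each time, so the groups overlapped, yet the pair differences were 2.11, 2.08 and 2.27. The rise was 2.15 ± 0.28, or 4.45-fold (adjusted p = 0.00158), and it was called without any 1 array and without any 1 replicate number. Gbp4 showed the same order of replicates, from 6.63, 9.36 and 4.81 to 8.7, 10.8 and 6.86 (1.85 ± 0.36), and lost its call without replicate number 3 (adjusted p = 0.126). Gbp7 (1.33 ± 0.41), Igtp (0.99 ± 0.32), Ifgga2l1 (0.78 ± 0.41), Irgm (0.53 ± 0.25) and Irgm2 (0.49 ± 0.24) did not pass, with adjusted p from 0.0655 to 0.316. Their values in untreated culture moved the other way, from -0.6 for Ifgga2l1 to -0.98 for Irgm2, and Irgm2 was the 1 of these called there (adjusted p = 0.0327). In a fit of the 6 treated arrays alone, with the block, all 7 GTPases were called.

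Some genes of sensing and signalling rose as well. Among 13 nucleic acid sensors and adaptors 3 rose (23.1%) and 1 fell (7.69%), with a median change of 0.09. Over all genes the shares were 5.74% and 6.37%. Ifih1, the long double-stranded RNA sensor MDA5, rose from 7.91, 8.92 and 8.63 to 9.15, 9.91 and 9.57 (1.06 ± 0.21), a call lost without treated replicate 2 at 6 h (adjusted p = 0.0554). The adaptors Ticam1 (0.91 ± 0.16) and Myd88 (0.70 ± 0.11) rose too, and Ticam1 also rose in untreated culture (0.69). Traf3, a ubiquitin ligase downstream of these adaptors, fell by 0.66 ± 0.14, and lost the call without treated replicate 1 or 2 at 3 h or replicate 2 at 6 h (adjusted p up to 0.0776). Its dimmer probe set gave 0.05. Of 15 receptor, Janus kinase and Stat genes 3 rose and 0 fell: Stat2 by 0.68 ± 0.19, Stat5b by 0.52 ± 0.09 and Stat6 by 0.46 ± 0.12. The adjusted p of Stat2 was 0.045 and exceeded 0.05 without any 1 of 8 arrays (up to 0.195), among them every treated array but replicate 1 at 6 h. That of Stat6 did so without any 1 of 7 (up to 0.171), among them every treated array but replicate 2 at 3 h. The dimmer probe set of Stat2 gave 0.29 and did not pass. The receptor genes Ifnar1 and Ifnar2 differed by 0.26 ± 0.09 and -0.09 ± 0.07 and did not pass.

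Of 7 interferon regulatory factors 0 rose and 1 fell. Irf3, the factor that starts interferon production after virus sensing, fell from 8.94, 9.0 and 9.18 to 8.53, 8.57 and 8.69, with no overlap (-0.44 ± 0.07, adjusted p = 0.0035), and by 0.30 in untreated culture. Irf7, its inducible relative, was higher at 6 h in every array but did not pass (0.96 ± 0.34, adjusted p = 0.107). Among 13 brakes on the signal 1 rose (7.69%), near the 5.74% over all genes. It was the SUMO ligase Pias4 (0.40 ± 0.08), whose call was lost without treated replicate 1 or 2 at 3 h (adjusted p up to 0.0732). Its dimmer probe set gave 0.27 and did not pass. Usp18, which blocks the receptor, was higher at 6 h without passing (0.71 ± 0.30, adjusted p = 0.192), and Socs1 differed by -0.06 ± 0.09.

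Antigen presentation rose in part. Of 21 MHC class I and peptide-loading genes 5 rose and 0 fell. They were the peptide transporter Tap1 (1.00 ± 0.25), the class I transactivator Nlrc5 (0.86 ± 0.21), the class I gene RT1-N3 (0.81 ± 0.22), the immunoproteasome subunit Psmb8 (0.37 ± 0.10) and the proteasome activator Psme2 (0.31 ± 0.08). The dimmer probe set of Tap1 gave 0.2 and did not pass. B2m, the light chain of class I, differed by 0.09 ± 0.06 and did not pass. Class I genes are near-identical copies, so the signal of RT1-N3 may include its relatives. The adjusted p of the 5 lay between 0.0288 and 0.0421, and each call was lost without any 1 of 3 or more arrays (adjusted p up to 0.137 for Nlrc5 and 0.19 for RT1-N3). Treated replicate 1 at 3 h and treated replicates 2 and 3 at 6 h were among these arrays for all 5 genes. Of 6 genes of ISG15 conjugation, Herc6 rose (1.01 ± 0.23, lost without treated replicate 1 or 3 at 3 h or 2 or 3 at 6 h, adjusted p up to 0.0949), and Isg15 itself did not pass (0.86 ± 0.32, adjusted p = 0.13).

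Death-related genes in the interferon lists rose in 5 of 25 cases (20%) and fell in 2 (8%), against 5.74% and 6.37% over all genes. Daxx, a regulator of apoptosis and chromatin, went from 8.22, 9.59 and 8.54 to 9.68, 10.56 and 9.36 (1.08 ± 0.13, adjusted p = 0.00122). Casp8, the initiator caspase of death receptors, rose by 0.89 ± 0.14, and both genes rose in untreated culture by 0.63 and 0.55. Pml (0.82 ± 0.19), the caspase inhibitor Xiap (0.80 ± 0.18) and Casp12 (0.68 ± 0.15) rose with calls that were lost without any 1 of 3 or 4 treated arrays (adjusted p up to 0.0845). Replicate 1 at 3 h and replicate 2 at 6 h were among these for each, with replicate 3 at 6 h for Pml and Xiap and replicate 3 at 3 h for Xiap and Casp12. The dimmer probe set of Pml gave 0.63 and did not pass. Among 27 chemokines and cytokines 2 rose (7.41%) and 1 fell (3.7%), near the shares over all genes. Il15, a growth factor of natural killer cells, rose by 0.78 ± 0.17, a call lost without treated replicate 2 at 3 h (adjusted p = 0.0762), and the membrane-bound chemokine Cxcl16 rose by 0.67 ± 0.09. Cxcl12, a chemokine made in resting liver, fell from 8.71, 7.9 and 7.51 to 7.86, 6.88 and 5.97 (-1.13 ± 0.14, adjusted p = 0.00145), by 2.2-fold, and fell as much in untreated culture (-1.15). Its dimmer probe sets gave -0.52 and -0.22 and did not pass.

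Some genes that were already far above the untreated level at 3 h did not climb further by the test; all of these were picked after their values were seen. Cxcl10, an attractant of activated lymphocytes, read 10.14, 12.28 and 12.08 at 3 h and 11.33, 11.71 and 10.17 at 6 h, against 6.31 to 6.99 in untreated cultures. Its pair differences were 1.19, -0.57 and -1.92, so the replicates disagreed in direction (-0.43 ± 0.49, adjusted p = 0.699). Ncoa7 behaved likewise, with 7.79, 9.74 and 9.38 at 3 h and 8.58, 8.48 and 7.35 at 6 h (-0.83 ± 0.40, adjusted p = 0.255). Irf1, a transcription factor of the early interferon response, read 8.09, 9.61 and 8.27 and then 9.11, 9.28 and 8.22 (0.21 ± 0.29, adjusted p = 0.76). In all 3 genes replicate 1 was the lowest array at 3 h and was the one that was higher at 6 h. The antiviral enzyme viperin (Rsad2) read 12.63, 13.9 and 13.77 and then 13.96, 14.14 and 14.1, so that replicates 2 and 3 were within 0.4 of their 3 h level (0.63 ± 0.33, adjusted p = 0.308). Rsad2 levels lay near the top of the scale, which may understate a change. Ifit2, which binds viral RNA, read 10.87, 12.42 and 12.1 and then 12.18, 12.94 and 12.19 (0.64 ± 0.31, adjusted p = 0.25).

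The largest rises also held 8 genes outside the interferon lists. Spats2l went from 5.37, 4.96 and 4.26 to 6.57, 7.38 and 5.59 (1.65 ± 0.23), Dennd2d rose by 1.46 ± 0.26, C2h3orf80 by 1.45 ± 0.22 and the transcriptional adaptor Lmo2 by 1.44 ± 0.28. In untreated culture these 4 changed by -0.19 to 0.09. Nfix, a nuclear factor I transcription factor, went from 6.82, 7.29 and 7.08 to 8.3, 8.97 and 8.36 (1.48 ± 0.18), against 0.48 in untreated culture, but its dimmer probe set gave 0.18. Spats2l also had a dimmer probe set with a smaller value, 0.66. Prss8, a membrane-anchored protease, read 8.59, 8.73 and 10.54 and then 10.32, 10.48 and 11.46 (1.47 ± 0.17), and rose nearly as much without interferon (1.33). Phf13, a reader of histone marks, rose by 1.41 ± 0.11 and by 1.09 without interferon. Ddit3 is described with the stress genes below.

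Genes of hepatocyte functions that passed the test were mostly lower at 6 h. Over the lists of liver functions 322 genes were measured, of which 15 rose (4.66%) and 68 fell (21.1%), against 6.37% falling over all genes, with a median change of -0.1. Untreated culture gave 12 rising and 56 falling in the same lists, and 51 genes fell in both. The count of 68 was 43, 35 and 28 without replicates 1, 2 and 3 of the treated 3 h group, and 62, 36 and 31 without those of the 6 h group. It was 46, 18 and 10 without replicate numbers 1, 2 and 3, 3 without the block and 38 in the blocked fit of the treated arrays alone. That last fit called 3 falling genes of bile acid synthesis, 7 of cholesterol synthesis, 5 of fatty acid synthesis, 3 of fatty acid oxidation and 8 of amino acid breakdown, fewer than the counts given next.

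The gene with the largest fall belongs to bile acid synthesis. Cyp7a1 read 11.57, 11.39 and 7.97 at 3 h and 9.95, 9.2 and 4.15 at 6 h, a fall of 2.54 ± 0.43 on the log2 scale, 5.81-fold (adjusted p = 0.00519). Replicate 3 was the lowest array at both times and fell the furthest, ending near the lower quartile, and the call held without it. Cyp7a1 also fell by 2.06 in untreated culture. Of 17 genes of bile acid synthesis 6 fell and 0 rose, among them the peroxisomal oxidase Acox2 (-0.49 ± 0.09). The bile acid receptor Nr1h4 (-0.61 ± 0.17), the hydroxylase Cyp39a1 (-0.38 ± 0.10) and the conjugating enzyme Baat (-0.34 ± 0.10) fell with calls lost without any 1 of 4 to 9 arrays (adjusted p up to 0.212), among them treated replicates 2 and 3 at each time. The list's count of 6 ranged from 2 to 6 without 1 treated array and from 1 to 4 without 1 replicate number.

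Cholesterol synthesis was the list with the highest share of falling genes, 11 of 20, with 0 rising and a median of -0.34. Msmo1, a sterol demethylating oxidase, went from 10.48, 11.04 and 10.86 to 9.89, 9.86 and 10.16, with no overlap (-0.82 ± 0.10, adjusted p = 0.00145). Mvd, which makes isopentenyl diphosphate, fell from 7.05, 7.15 and 7.14 to 6.47, 6.2 and 6.34 (-0.78 ± 0.09) and was called without the block as well (adjusted p = 0.017). Acat2 (-0.71 ± 0.12), Idi1 (-0.68 ± 0.11) and Hsd17b7 (-0.67 ± 0.09) fell with no overlap between the times. These 5 enzymes fell by 0.62 to 0.80 in untreated culture, where 10 of the 20 fell and the median was -0.26. Without 1 treated array 5 to 13 fell, and without 1 replicate number 3 to 10.

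In fatty acid synthesis 8 of 23 genes fell and 1 rose. Pnpla3, a lipid droplet protein under lipogenic control, fell from 7.89, 7.58 and 9.79 to 7.11, 6.07 and 8.5 (-1.19 ± 0.18), a call lost without replicate number 3 (adjusted p = 0.0642). Gpam, the first enzyme of triglyceride assembly, fell from 8.73, 8.57 and 8.42 to 8.12, 7.39 and 7.31 (-0.97 ± 0.12), and the desaturase Fads1 by 0.64 ± 0.10. Insig2, which retains sterol-sensing proteins in the endoplasmic reticulum, was the 1 that rose (0.95 ± 0.15). Genes of fatty acid oxidation and ketone metabolism fell in 7 of 31 cases, led by the ketone enzyme Bdh1 (-0.64 ± 0.08) and the carnitine palmitoyltransferase Cpt2 (-0.48 ± 0.07). The 2 that rose there were the lipase inhibitor Angptl4, from 10.8, 10.6 and 9.94 to 11.32, 11.83 and 11.28 (1.03 ± 0.13), and the hormone Fgf21 (1.10 ± 0.25, lost without replicate 1 or 2 of either treated group, adjusted p up to 0.0911). Without 1 treated array the falling genes numbered 3 to 7 in the synthesis list and 3 to 4 in the oxidation list, and without 1 replicate number 1 to 7 and 1 to 4.

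Amino acid breakdown and the urea cycle fell in 13 of 32 genes, with 0 rising and a median of -0.23. Hgd, an enzyme of tyrosine breakdown, went from 11.17, 10.15 and 10.45 to 10.47, 9.34 and 9.39 (-0.86 ± 0.09, adjusted p = 0.000739). The lysine enzyme Aass (-0.62 ± 0.11), the kynurenine enzyme Kmo (-0.60 ± 0.10), the branched-chain dehydrogenase subunit Bckdhb (-0.55 ± 0.08) and Fah, the last step of tyrosine breakdown (-0.48 ± 0.09), fell with it. All 5 fell in untreated culture by 0.46 to 0.80. The count of 13 was 8 to 13 without 1 treated array, and 10, 4 and 1 without replicate numbers 1, 2 and 3. One-carbon and sulfur amino acid genes fell in 5 of 24, led by the phosphatidylcholine-making enzyme Pemt (-0.47 ± 0.08), and 1 to 5 fell without 1 treated array.

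Of 33 cytochromes P450, the enzymes that oxidize drugs and steroids, 4 fell (12.1%) and 0 rose, against 6.37% and 5.74% over all genes. Values lay below 0 in 30 of the 33, with a median of -0.14. The count of 4 dropped to 1 to 3 without 1 treated array and to 0 to 2 without 1 replicate number. Cyp1a1, the target of the aryl hydrocarbon receptor, went from 10.37, 9.31 and 9.22 to 9.73, 7.45 and 8.0 (-1.24 ± 0.20, adjusted p = 0.00366), with replicate 1 highest at both times. That call was lost without replicate number 3 (0.0702), and the gene fell by 0.90 in untreated culture. Of 28 conjugating enzymes 4 fell (14.3%) and 2 rose (7.14%), all by 0.52 or less, against 6.37% and 5.74% over all genes. Among 21 transporters the uptake carrier Slco1b2 fell (-0.67 ± 0.08), while the canalicular pumps Abcc2 (0.64 ± 0.08) and Abcb4 (0.55 ± 0.08) rose, each by a like amount in untreated culture (-0.66, 0.65 and 0.64).

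Genes of secreted liver proteins fell in small numbers. Whether their shares differed from the 6.37% over all genes, dim ones included, was not tested. Acute phase genes fell in 3 of 25 (12%, 1 to 2 genes without 1 treated array) and rose in 0. Among them the ferrireductase Steap4 went from 10.7, 8.39 and 7.71 to 9.95, 7.52 and 6.55 (-0.93 ± 0.12). The iron hormone hepcidin (Hamp) fell by 0.47 ± 0.12, a call lost without any treated array but replicate 1 at 6 h (adjusted p up to 0.123). Complement and coagulation genes fell in 3 of 26 (11.5%, 0 to 3 genes without 1 treated array) and rose in 1 (3.85%). Without any 1 replicate number 0 genes of this list fell, and 1 to 2 of the acute phase list. The riser was C6, a component of the membrane attack complex, from 10.0, 9.77 and 9.93 to 10.44, 10.51 and 10.39 (0.55 ± 0.11, adjusted p = 0.0121), while in untreated culture it changed by -0.09. The groups of C6 did not overlap, but the call was lost without treated replicate 1 or 2 at 3 h or replicate 2 at 6 h (adjusted p up to 0.0633). Among 24 hepatocyte transcription factors 3 rose (12.5%) and 2 fell (8.33%). Foxa2, a pioneer factor of liver genes, went from 7.74, 7.96 and 7.35 to 8.68, 8.99 and 8.66 (1.09 ± 0.16, adjusted p = 0.00257), and Nr1h3, the oxysterol receptor LXR alpha, fell by 0.60 ± 0.09. Both moved alike in untreated culture, by 0.81 and -0.65.

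**Figure D2:**
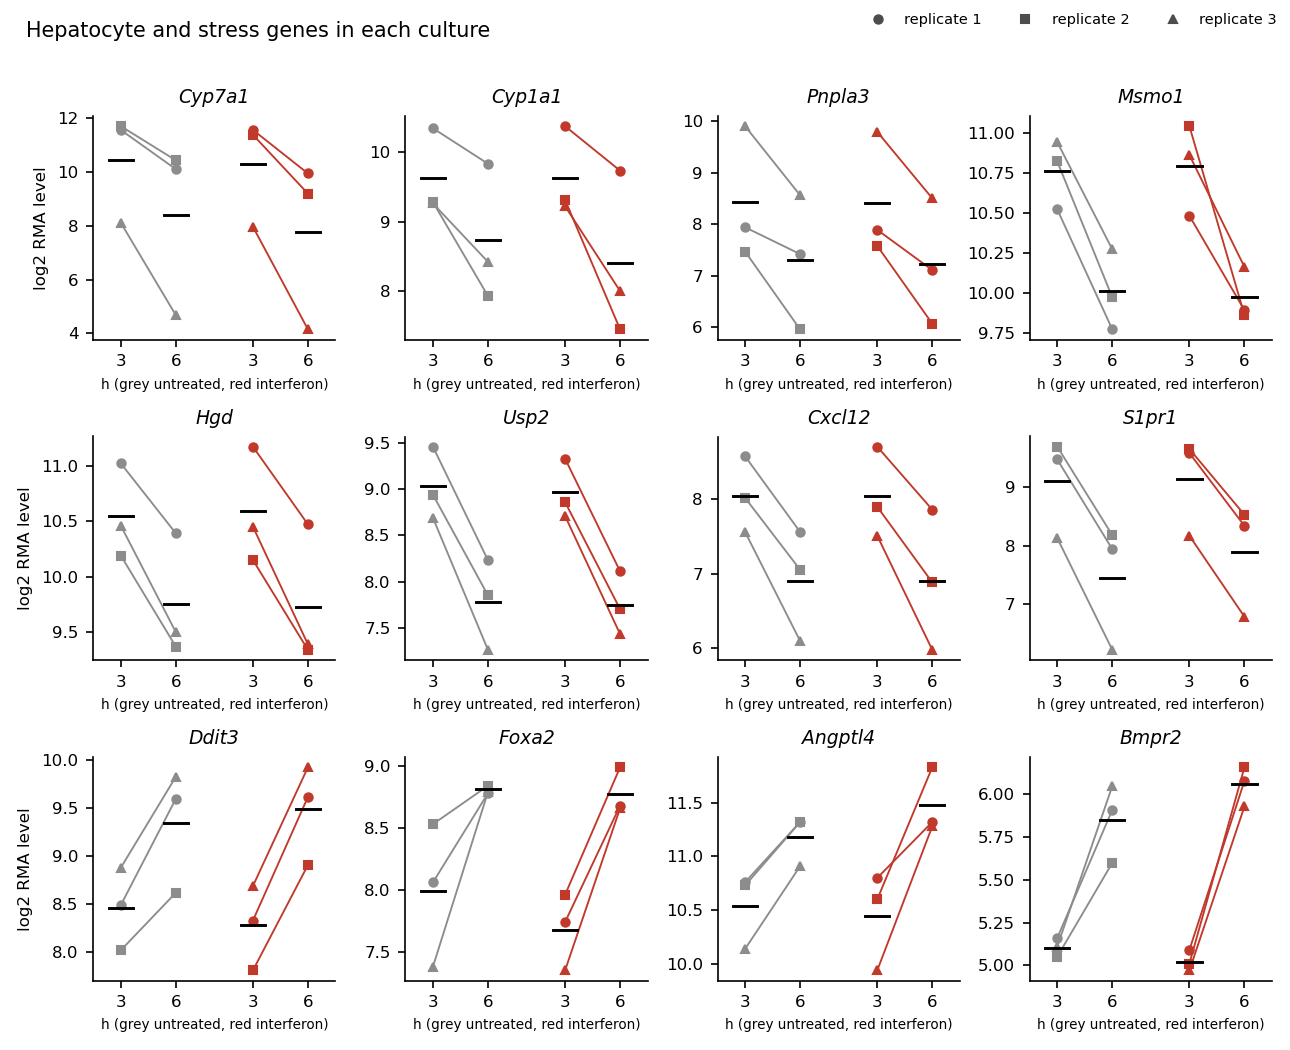
Log2 RMA level (vertical axes) of 12 hepatocyte, stress and growth genes at 3 h and 6 h in untreated (grey) and interferon-treated (red) cultures; symbols are the 3 replicates, lines join arrays of the same number and black bars are group means of 3 arrays. Every pair of every gene moved the same way in both cultures, and the Cyp7a1 replicate 3 line lies below the others in each.

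The integrated stress response, which lowers translation and turns on Atf4 targets, rose in 10 of 30 genes (33.3%) and fell in 1. Ddit3, the factor CHOP, went from 8.33, 7.81 and 8.69 to 9.62, 8.91 and 9.93, with no overlap (1.21 ± 0.10, adjusted p = 0.000188). Chac1, which degrades glutathione, rose by 1.19 ± 0.22, and Ppp1r15a, which restores translation, by 0.81 ± 0.11. In untreated culture these 3 rose by 0.88, 1.07 and 0.70, and 6 of the 30 genes rose. The count of 10 was 5 to 10 without 1 treated array and 4 to 5 without 1 replicate number. Immediate early genes rose in 5 of 29 (17.2%) and fell in 1 (3.45%), against 5.74% and 6.37% over all genes. Ier2 (0.93 ± 0.09) and Junb (0.85 ± 0.11) led the rises, and 2 to 4 genes of the list rose without 1 treated array.

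Clock genes, which oscillate over the day, rose in 4 of 25 cases (16%) and fell in 4 (16%), against 5.74% and 6.37% over all genes. Without 1 treated array 1 to 3 rose and 3 to 4 fell, and without 1 replicate number 0 to 3 rose and 1 to 3 fell. Usp2, a deubiquitinase with strong daily rhythm, fell from 9.33, 8.86 and 8.71 to 8.11, 7.7 and 7.43 (-1.22 ± 0.09, adjusted p = 0.00011), and the rhythmic factor Hlf fell by 0.74 ± 0.12. Both fell in untreated culture as well (-1.25 and -0.82). Since the 3 h and 6 h cultures were harvested 3 h apart, time of day and time in culture cannot be told apart from time in interferon by the treated arrays alone. The cell cycle inhibitor p27 (Cdkn1b) read 9.2, 9.19 and 9.19 and then 9.96, 10.05 and 9.85 (0.76 ± 0.08), with the 3 h arrays within 0.01 of each other, and was called without the block (adjusted p = 0.00783). The BMP receptor Bmpr2 likewise rose, from 5.09, 5.01 and 4.97 to 6.08, 6.16 and 5.93 (1.04 ± 0.11, adjusted p = 0.00783 without the block). The dimmer probe sets of Cdkn1b and Bmpr2 gave 0.21 and 0.06 and did not pass. Other large falls were the sphingosine receptor S1pr1, from 9.59, 9.66 and 8.17 to 8.34, 8.53 and 6.78 (-1.26 ± 0.09), the small GTPase Rab40b (-1.56 ± 0.19, with -0.37 on its dimmer probe set), Spsb4 (-1.40 ± 0.19), the oxidase Ero1a (-1.09 ± 0.17) and the interleukin-1 receptor Il1r1 (-1.06 ± 0.10). A dimmer probe set of S1pr1, at a mean level of 3.78, gave -0.03.

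**Figure D3:**
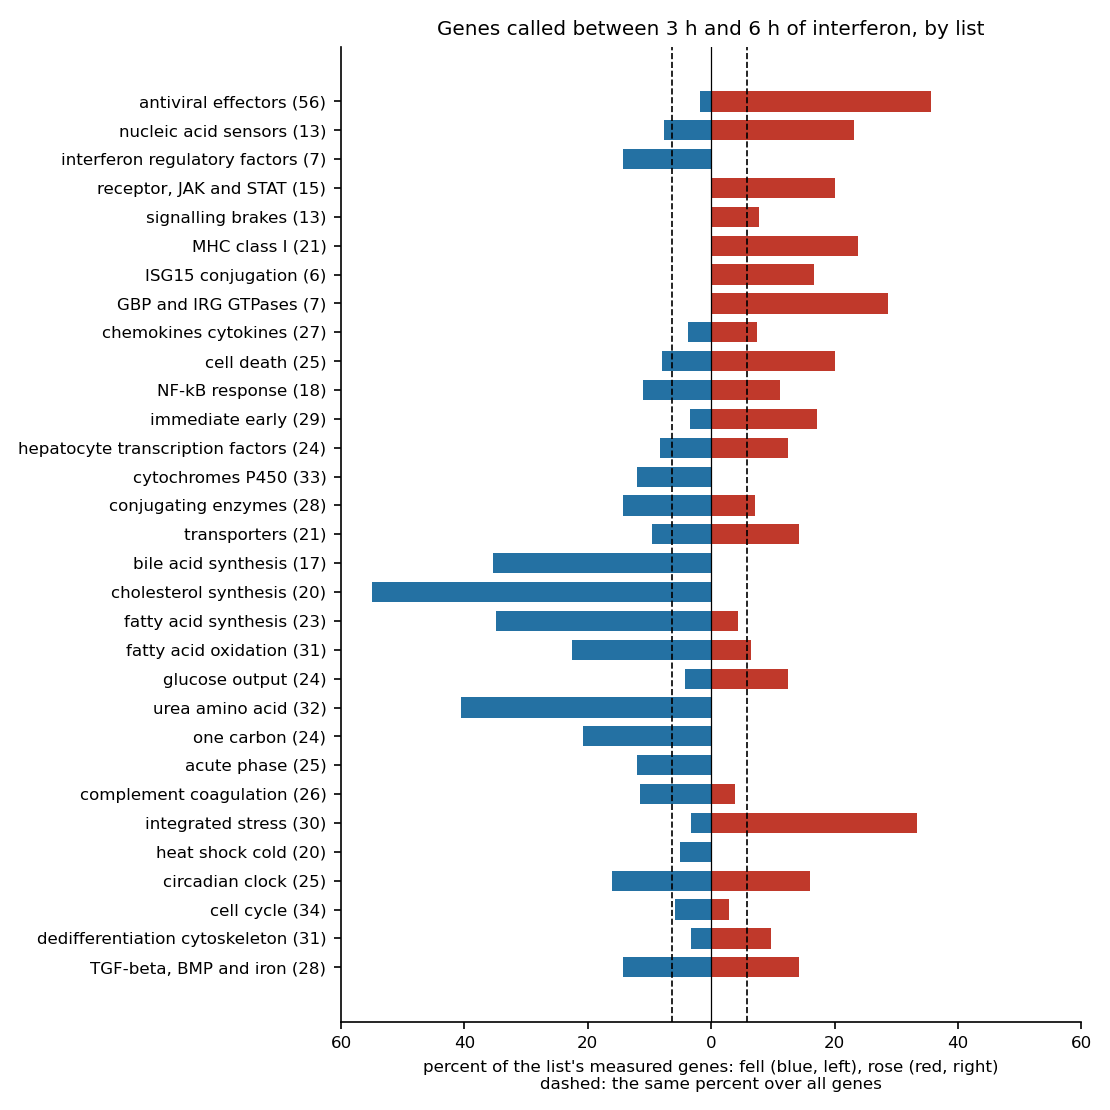
Percent of each list's measured genes (number in parentheses) that fell (blue, left) or rose (red, right) between 3 h and 6 h of interferon at an adjusted p under 0.05 by limma with the replicate block; dashed lines mark 6.37% falling and 5.74% rising over all genes. Antiviral effectors reach 35.7% rising and cholesterol synthesis 55% falling.

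The treated movement was set beside that of the untreated cultures, which share no array with the treated ones. A call in 1 culture alone does not show that the 2 changes differed. Over the same interval 1033 probe sets rose there (3.33%) and 1496 fell (4.82%), together 8.15%, or 507 rising (3.57%) and 884 falling genes (6.22%). Of the probe sets called in treated culture, 1689 were called with the same sign in untreated culture, 56.2% of the treated calls and 66.8% of the untreated ones, and 1 with the opposite sign. Any untreated change of the same sign was seen for 95.6% of the treated calls. The exceptions lay mostly on 1 side: 111 probe sets called up in treated culture were at or below 0 in untreated culture, against 22 called down and at or above 0. Of the 15 largest falls 14 were called in untreated culture, with changes from -2.06 to -0.69, whereas of the 7 interferon genes among the largest rises 0 were, with changes from -0.43 to 0.22. The untreated median of the antiviral effectors was -0.16 and that of the guanylate-binding and immunity-related GTPases -0.72. Of the 41 interferon-list genes that rose with treatment, 24 had an untreated change below 0.

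The difference between the treated and the untreated change was tested directly. With 1 block shared by both cultures, limma called 0 probe sets (0%, smallest adjusted p 0.462), and 1466 had an unadjusted p under 0.05, 848 with the treated change higher and 618 lower. With the replicate number as a block within each treatment, which leaves 4 residual degrees of freedom, 90 probe sets were called (0.29%), all 90 with the treated change higher and 0 lower. They stood for 65 named genes, 42 of them in the interferon lists by their brightest probe set, and 60 of the 90 had also risen in treated culture. The treated change exceeded the untreated one by 2.74 ± 0.23 for Ddx60 (adjusted p = 0.0031), by 2.41 ± 0.31 for Mx1 (0.0168), by 2.22 ± 0.17 for Gbp2 (0.00243) and by 2.05 ± 0.11 for Gbp7 (0.000322). For the last, 1.33 came from the treated side and -0.72 from the untreated. Irgm2 differed by 1.47 ± 0.21 (0.0257) and Herc3, a ubiquitin ligase, by 1.43 ± 0.22 (0.0414), mostly through their fall in untreated culture (-0.98 and -1.27). Gbp7, Irgm2 and Herc3 were picked after their values were seen. Of the 322 liver-function genes 0 were among the 90. Cyp7a1, for example, differed by -0.48 with an adjusted p of 0.999 in the shared-block fit, which does not show that its 2 changes were alike.

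**Figure D4:**
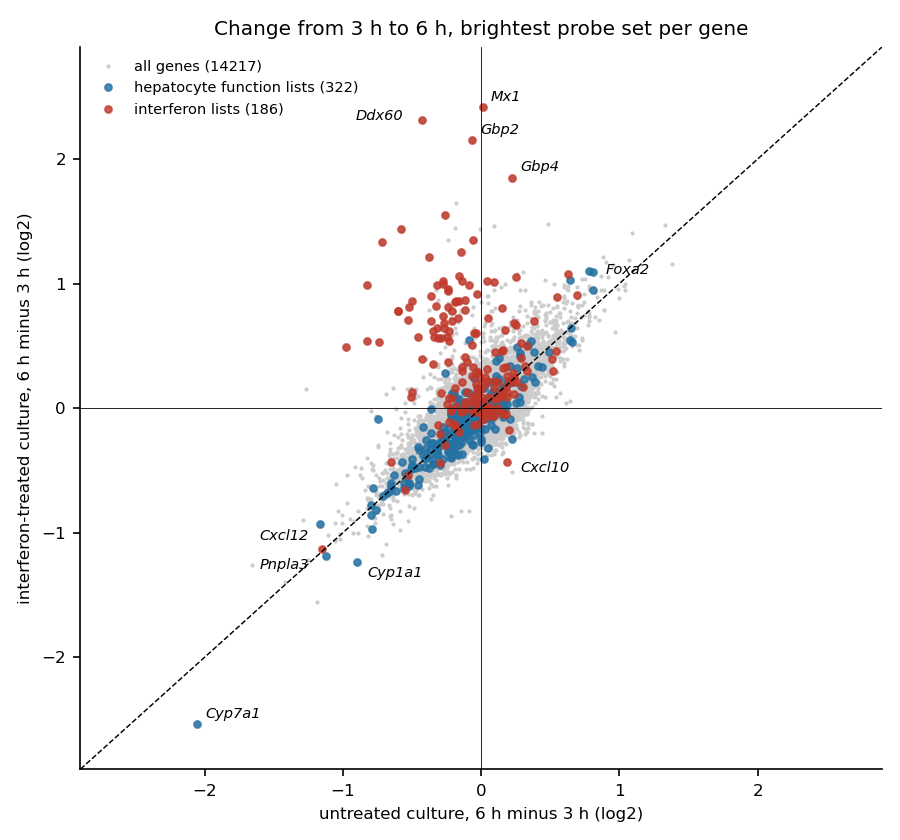
Change from 3 h to 6 h (log2) in untreated culture (horizontal axis) against interferon-treated culture (vertical axis) for 14217 genes (grey), 322 hepatocyte-function genes (blue) and 186 interferon-list genes (red), each point the mean of 3 pairs; the dashed line marks equal change. Most hepatocyte genes lie near the line, Cyp7a1 being lowest (-2.06 and -2.54), and Mx1, Ddx60, Gbp2 and Gbp4 stand above it near 0 on the horizontal axis.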

How the data were processed

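Per the labels' protocols, RNA of the 12 cultures was turned into biotinylated cRNA and hybridised to Affymetrix arrays. The authors' deposited values are log2 levels, and the submitters' processing notes name RMA, affy and R 2.10.0. RMA gives every array the same intensity distribution and so hides a change common to most transcripts. Which probe set definition it used is not given in the sources. After 57 control probe sets were left out, 31042 of 31099 were tested. The platform annotation gave 1 symbol to 20826, several to 436 and did not list 9780; 20758 of the first matched RefSeq genes of GRCr8 by Entrez identifier, and 0 symbols changed. A gene is its brightest probe set over 12 arrays.

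Changes were fitted with limma 3.58.1 (lmFit, eBayes) in R 4.3.3 over all 12 arrays, with 4 groups and the replicate number as a block (6 residual degrees of freedom), two-sided, adjusted by Benjamini-Hochberg over 31042 probe sets. The pairing follows the shared numbers in the labels: deviations from group means correlated at 0.585 to 0.718 in the 3 treated pairs and at -0.496 to -0.159 between treated arrays of different numbers at the 2 times. Because the 3 deviations of a group sum to 0, the second range is pushed below 0 when the first is positive. The second range is therefore no separate support for the pairing. The script was tested on simulated data.

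Array medians were 5.16 to 5.21, the 3' minus 5' difference of actin 0.583 to 0.785 and of GAPDH 0.057 to 0.133, and arrays correlated at 0.979 to 0.997 with 0 identical pairs. The number of arrays limits the precision. Named genes are the 15 largest rises and falls called with the same sign in all 3 pairs. Up to 5 called members of each of 38 lists were added, or the 2 brightest where none was called. Others lie outside this rule and count as picked after their values were seen, also where their paragraph does not say so. Among these are Irf7, Usp18, Socs1, Ifnar1, Ifnar2, B2m, Isg15 and the GTPases that did not pass. The members and lists were chosen with earlier results of these data known. Of 892 listed genes 777 were measured. The alternatives were no block, fewer arrays, limma-trend, filters on dim probe sets, other scalings, arrays left out and the mean of a gene's probe sets.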

Additional observations from a re-analysis of the deposited data

How the results depend on the processing

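Of the 137 named genes called, 0 reversed under any alternative run; 81 stayed called when any 1 array was left out and 42 when any 1 replicate number was left out of all groups. Without the replicate block the treated count fell from 3005 to 120 (72 higher, 48 lower) and the untreated count to 59 (28 higher, 31 lower). With only the arrays compared, still blocked, they were 1914 (867 lower) and 1109 (400 higher, 709 lower). The difference needs the arrays of both cultures, so its counterpart is the fit with a block within each treatment described above. That fit gave the same 90 calls, all 90 higher, and is not a separate result. Leaving out an array or a replicate number gave 699 to 3029 treated calls (360 to 1546 higher, 231 to 1483 lower), 497 to 2573 untreated calls (195 to 1047 higher, 267 to 1526 lower) and 0 to 18 for the difference (0 to 18 higher, 0 lower). Leaving out arrays also lowers their number, and the cause of these shifts was not tested. Limma-trend, both filters on dim probe sets, centring and repeated quantile normalization gave 2834 to 3768 treated calls. The split of treated calls was 1449 higher and 1385 lower after centring, and 1519 and 1705 after quantile normalization. The mean over a gene's probe sets ended 13 calls, those of Stat2, Pml, Nfkbiz, Jund, Ier5, Abcb1a, Acsl1, Masp2, Sesn2, Hsph1, Nr1d2, Tubb6 and Id2. Probe sets near the lower quartile (3.84 to 3.93) limit the folds of dim genes.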

Other observations

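Several genes had probe sets that disagreed; they were picked after their values were seen. A dimmer probe set of the chaperonin subunit Cct6a rose by 2.5 ± 0.14 between 3 h and 6 h of interferon (adjusted p = 3.42e-05 by limma with the block) and by 2.45 in untreated culture, whereas the brightest probe set differed by -0.21 ± 0.07 and did not pass. A pair of probe sets of the cold-inducible RNA-binding protein Cirbp rose by 1.39 ± 0.10 and 1.19 ± 0.09, and by 1.27 and 1.17 in untreated culture, while its brightest one differed by 0.06 ± 0.08. A probe set of the helicase Ddx5 fell by 0.94 ± 0.10 against -0.10 ± 0.11 on the brightest. The growth factor receptor Egfr rose by 1.00 ± 0.09 and 1.13 ± 0.11 on its brighter probe sets and differed by -0.17 ± 0.08 on the dimmest. Which transcripts these probe sets read was not tested.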
